A study of Mus musculus with 6 samples.

Results

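Imprinted genes are transcribed mainly from the copy inherited from 1 parent. Those examined here are Grb10, Meg3, Dlk1, Peg3, Mest, Snrpn, Gnas, Impact, Nnat and Ndn, 10 genes that lie outside the imprinted cluster at the distal end of chromosome 7. Probe sets were taken by the gene symbol of the platform annotation, also where a probe set had several symbols, and 17 of the 12422 probe sets tested were found this way. They represent 9 of the genes, with 3 probe sets each for Grb10, Gnas and Peg3, 2 each for Meg3 and Ndn, and 1 each for Dlk1, Mest, Impact and Nnat. Each of the 17 named a single gene. The annotation used here gave Snrpn no probe set, so Snrpn was not analysed.

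The samples were mouse embryonic stem cells, pluripotent cells taken from early embryos, of wild-type or HDAC1 knock out genotype and of the same litter, with 3 arrays per genotype and no treatment. HDAC1 is a histone deacetylase of several corepressor complexes. Each sample of total RNA was hybridised to 1 Affymetrix MG U74Av2 array in a single colour. The labels call the samples of a genotype biological replicates without saying whether they came from separate lines or cultures, so a p-value here speaks only for the spread among these arrays, part of which may be technical. Cells were grown either with LIF (leukaemia inhibitory factor) on gelatin or without LIF on feeder layers, and the labels do not say which sample had which.

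At an imprinted locus, DNA methylation set in the egg or the sperm marks a control region, and the mark is carried through the cell divisions of the embryo, so that neighbouring genes keep an active and a silent copy. In the mouse, Dlk1, Peg3, Mest, Snrpn, Impact, Nnat and Ndn are expressed from the paternal copy. Meg3 and, in most tissues outside the brain, Grb10 are expressed from the maternal copy. Transcription of the G protein subunit from Gnas favours the maternal copy in some tissues and uses both copies in most others. The arrays measure the RNA of both copies together, so no statement on either copy can be made from these signals.

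The promoters of Grb10, Meg3, Dlk1 and Peg3 are shown because these genes gave the largest differences or, for Dlk1, share a locus with one that did. Where the table gives several starts the one farthest upstream is shown. Each sequence holds the 250 bases before a RefSeq transcript start on GRCm38.p6, read 5′ to 3′ on the strand of the gene, with every CpG in capitals. They lie at chr11:12037421-12037670 on the minus strand for Grb10, chr12:109540746-109540995 on the plus strand for Meg3, chr12:109452573-109452822 on the plus strand for Dlk1 and chr7:6730420-6730669 on the minus strand for Peg3.
Grb10: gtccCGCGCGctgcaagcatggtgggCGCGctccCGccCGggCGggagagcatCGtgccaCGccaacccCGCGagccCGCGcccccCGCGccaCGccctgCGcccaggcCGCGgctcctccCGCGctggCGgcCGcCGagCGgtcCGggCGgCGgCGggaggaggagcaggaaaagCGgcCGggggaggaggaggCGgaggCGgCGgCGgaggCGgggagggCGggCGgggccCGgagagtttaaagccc
Meg3: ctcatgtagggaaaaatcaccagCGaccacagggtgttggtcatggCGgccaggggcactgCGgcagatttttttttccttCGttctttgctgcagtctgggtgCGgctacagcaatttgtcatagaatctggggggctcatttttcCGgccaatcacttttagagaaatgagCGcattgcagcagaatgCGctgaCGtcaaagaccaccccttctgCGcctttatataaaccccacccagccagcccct
Dlk1: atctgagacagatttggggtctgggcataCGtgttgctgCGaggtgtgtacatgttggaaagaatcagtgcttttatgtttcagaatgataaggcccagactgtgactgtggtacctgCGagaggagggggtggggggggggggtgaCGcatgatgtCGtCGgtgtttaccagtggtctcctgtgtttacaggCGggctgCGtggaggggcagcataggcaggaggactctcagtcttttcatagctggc
Peg3: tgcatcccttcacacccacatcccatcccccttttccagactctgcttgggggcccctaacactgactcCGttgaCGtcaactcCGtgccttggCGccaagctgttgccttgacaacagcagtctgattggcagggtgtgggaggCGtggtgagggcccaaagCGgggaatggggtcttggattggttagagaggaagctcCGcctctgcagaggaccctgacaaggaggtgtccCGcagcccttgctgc

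The Grb10 window was the richest of these 4, with 40 CpG sites and a G and C content of 81.2%. The Meg3 window held 10 CpG sites and those of Dlk1 and Peg3 held 8 each, against a median of 6 over the 32851 promoters of the table. The other listed start of Grb10, chr11:12027972-12028221, had 8 CpG sites and a G and C content of 54.0%, and that of Meg3, chr12:109545148-109545397, had 0 CpG sites, so these counts hold only for the starts shown. The letters TGCCGC, the methylated target of the imprint-protecting factor ZFP57, were searched on both strands and occurred once in the Meg3 window and in none of the other 3. Of all promoters in the table, 8.7% held them. The letters GGGCGG, the core of the GC box bound by SP1, occurred 5 times in the Grb10 window, overlapping matches included, and in none of the other 3, and 32.7% of all promoters held them. Neither set of letters occurred at the other starts of Grb10 and Meg3, and no match of the first overlapped one of the second in the windows shown. Over 19 windows from 9 of the genes, Impact left out, 3 held TGCCGC and 6 held GGGCGG. Besides the Meg3 window, those with TGCCGC were 2 overlapping windows of Mest, a gene without a call.

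Transcript levels are given as MAS5 signal, a linear intensity per probe set in arbitrary units. Differences are knockout minus wild type on the log2(signal + 16) scale with the standard error of limma, and a probe set is called at a Benjamini-Hochberg adjusted p under 0.05 over all 12422 probe sets. A signal at or under 116.4, set from the array's bacterial and yeast control probe sets, is spoken of as background. A group is spoken of as at background where its mean lay at or under this level, even if single arrays lay above it. Hdac1, the targeted gene, had a signal of 2310.3 ± 104.7 (SD, n = 3) in wild-type and 141.8 ± 48.0 (SD, n = 3) in knockout cells. The 6 arrays had median signals between 186.6 and 207.5. The Y-linked gene Eif2s3y was at background on all 3 knockout arrays and on none of the wild-type arrays, so loss of HDAC1 and the sex chromosomes of the samples cannot be told apart in any comparison here.

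The imprinted genes did not move as a block. Meg3 and Peg3 rose and Grb10 and Gnas fell, each on only some of its probe sets, while Dlk1, Mest, Impact, Nnat and Ndn had no call. Of the 17 probe sets, 3 were called higher and 3 lower by limma. Among all probe sets tested, 3.88% were called, 2.25% higher and 1.63% lower. For 11 of the 17, 6 higher and 5 lower, the knockout arrays all lay above or all below the wild-type arrays, which held for 20.6% of all probe sets. The median difference of the 17 was 0.00 and that of all probe sets was -0.04, while the median size of the difference was 0.47 and 0.25. Since the genes were chosen with earlier results of these data known, these shares describe the 17 probe sets and carry no test. In bulk RNA of this kind, fewer cells that express a gene and less RNA per cell cannot be told apart.

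**Figure D1:**
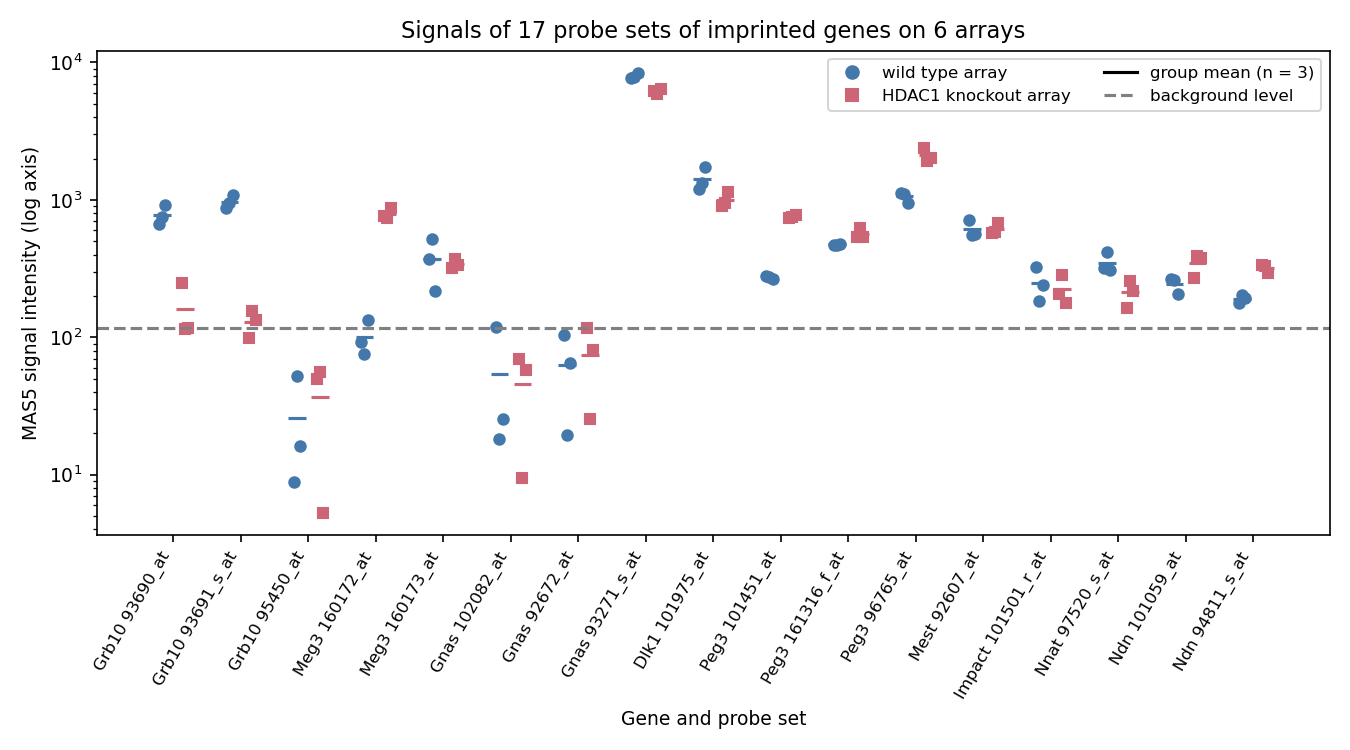
MAS5 signal of each of the 17 probe sets on each array (log axis), with circles for wild-type arrays, squares for HDAC1 knockout arrays, short lines for group means (n = 3) and a dashed line at the background level of 116.4. Both bright Grb10 probe sets drop to near background in knockout cells and 1 Meg3 probe set rises from it, while 1 probe set of Grb10 and 2 of Gnas stay at background in both genotypes.

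Grb10, an adaptor protein that restrains insulin and growth factor signalling, gave the largest fall. Its probe set 93691_s_at had signals of 867.7, 950.1 and 1085.1 on the wild-type arrays and 99.1, 155.6 and 134.3 on the knockout arrays. The groups lay far apart, and 1 knockout array was at background. The difference was -2.77 ± 0.20 (adjusted p = 3.18e-05 by limma), the 10th largest of all probe sets in size, and 6.82-fold. Probe set 93690_at had 671.3, 748.4 and 920.5 in wild-type and 248.6, 115.6 and 116.2 in knockout cells. Here knockout replicate 1 stood above the other two knockout arrays, which were at background, and still under every wild-type array. This difference was -2.25 ± 0.28 (adjusted p = 0.00124 by limma), or 4.75-fold. Since 2 of the 3 knockout arrays were at background, the fold depends on the background of the probe set. The third probe set, 95450_at, had signals from 5.3 to 56.4 over all 6 arrays and was at background in both groups, so no fold is given for it.

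Meg3, a long non-coding RNA of the imprinted region on chromosome 12, gave the largest rise, and it did so on 1 of its 2 probe sets. Probe set 160172_at had signals of 92.1, 75.6 and 134.7 on the wild-type arrays and 765.3, 741.6 and 879.7 on the knockout arrays. In wild-type cells 2 of 3 arrays were at background, and the lowest knockout array was well above the highest wild-type array. The difference was 2.82 ± 0.24 (adjusted p = 8.55e-05 by limma) and at least 5.85-fold when wild-type arrays under background were set to it. Probe set 160173_at had 374.4, 521.3 and 218.3 in wild-type and 318.9, 374.3 and 336.1 in knockout cells. The knockout arrays lay inside the wild-type range, and the wild-type arrays were the more scattered, with a coefficient of variation of 40.8% against 8.26%. Its difference was -0.03 ± 0.28 (adjusted p = 0.981 by limma), with a 95% interval from -0.65 to 0.59, and the sign changed with quantile normalization and median centring. The interval leaves out a rise of the size seen on the first probe set.

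Dlk1, a transmembrane ligand related to the Notch ligands, lies beside Meg3 on chromosome 12 and is expressed from the opposite parental copy. It had signals of 1191.7, 1316.4 and 1743.8 in wild-type and 898.7, 955.2 and 1140.1 in knockout cells. Every knockout array was under every wild-type array, although the closest pair, 1140.1 and 1191.7, differed little. The difference of -0.49 ± 0.15 missed the threshold (adjusted p = 0.122 by limma) with a 95% interval from -0.82 to -0.16. The log2 difference between Meg3 probe set 160172_at and Dlk1 within an array was -3.63 ± 0.20 (SD, n = 3) in wild-type and -0.32 ± 0.08 (SD, n = 3) in knockout cells. It thus shifted by 3.31, with a two-sided exact permutation p of 0.1, the smallest that 3 against 3 arrays allow. As this Meg3 probe set had a wild-type mean under background, the size of the shift depends on signals that were not measured above it. With signals under background set to it, an alternative chosen with the data known, the shift was at least 3.04. The probe set stands for Meg3 as the brighter over all 6 arrays, through its knockout signals. With 160173_at, above background in both groups and also added later, the shift was 0.46 (exact permutation p = 0.7), and with the mean of both it was 1.88.

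Peg3, a zinc finger protein of the paternally expressed domain on proximal chromosome 7, rose on 2 of its 3 probe sets. Probe set 101451_at had signals of 279.5, 276.9 and 263.9 on the wild-type arrays and 740.3, 752.4 and 779.3 on the knockout arrays. The arrays of each genotype were tightly grouped, with coefficients of variation of 3.06% and 2.64%. The difference was 1.42 ± 0.14, or 2.67-fold (adjusted p = 0.000285 by limma). Probe set 96765_at had 1127.7, 1110.8 and 945.1 in wild-type and 2399.5, 1931.5 and 2019.0 in knockout cells. The groups were again separate, at a difference of 0.98 ± 0.11, or 1.98-fold (adjusted p = 0.000665 by limma), a call that was lost without a trend in the variance model (adjusted p = 0.0631). The third, 161316_f_at, had 471.3, 472.7 and 477.8 in wild-type and 538.7, 626.6 and 533.4 in knockout cells. Its groups did not overlap either, but the difference of 0.25 ± 0.14 was not called (adjusted p = 0.455 by limma). In Affymetrix names the ending f marks probes that match several members of a sequence family, the ending s probes shared by several transcripts and the ending r a probe set chosen under relaxed design rules.

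Gnas encodes the stimulatory G protein subunit that couples hormone receptors to adenylyl cyclase. Probe set 93271_s_at was the brightest of the 17, with signals of 7756.4, 7870.3 and 8419.4 in wild-type and 6191.6, 5891.8 and 6381.0 in knockout cells. The genotypes were clearly separate with a coefficient of variation near 4% in each (4.42% and 4.01%). The fall was small, -0.38 ± 0.08 or 1.30-fold (adjusted p = 0.0192 by limma). The call was lost in 8 of 16 other settings, among them median centring (adjusted p = 0.11) and the omission of wild type replicate 1 or 2 or of HDAC1 knockout replicate 1, 2 or 3 (adjusted p from 0.0502 to 0.114). The other 2 Gnas probe sets, 102082_at and 92672_at, had signals from 9.4 to 119.1 and from 19.6 to 116.4 and were at background in both genotypes.

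**Figure D2:**
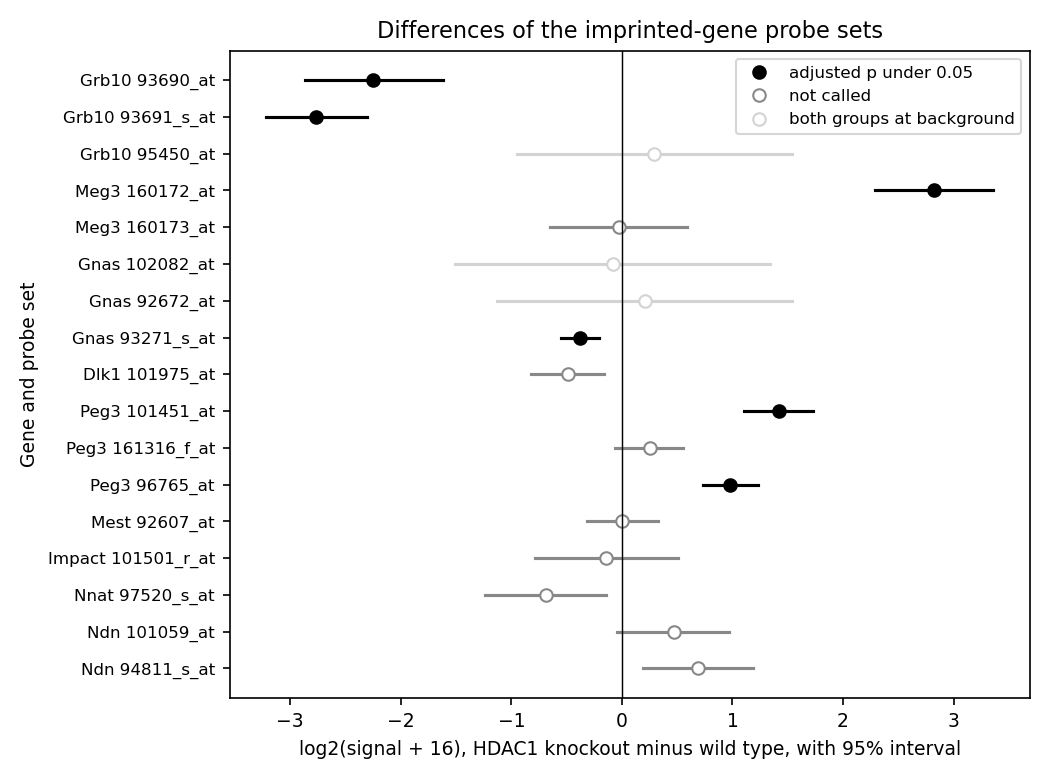
Knockout minus wild-type difference in log2(signal + 16) for each of the 17 probe sets, with its 95% interval from limma (3 arrays per genotype). Filled points passed an adjusted p under 0.05 and open points did not; Meg3 160172_at at 2.82 and Grb10 93691_s_at at -2.77 are the extremes, and the pale points were at background in both genotypes.

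The remaining paternally expressed genes had no call. Ndn, which encodes the growth suppressor necdin and lies in the same imprinted region of chromosome 7 as Snrpn, was higher in knockout cells on both of its probe sets without passing the threshold. Probe set 94811_s_at had 177.2, 202.4 and 194.1 in wild-type and 334.7, 328.9 and 293.2 in knockout cells, with no overlap and a difference of 0.69 ± 0.22 (adjusted p = 0.149 by limma). Probe set 101059_at had 264.6, 259.9 and 206.9 in wild-type and 271.6, 387.8 and 375.8 in knockout cells, with knockout replicate 1 only just above the wild-type arrays. Its difference was 0.47 ± 0.23 (adjusted p = 0.376 by limma).

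Nnat, a small membrane protein gene that sits inside an intron of Blcap on chromosome 2, had signals of 320.6, 418.5 and 309.7 in wild-type and 162.4, 256.4 and 218.0 in knockout cells. All knockout arrays were lower, and the difference of -0.69 ± 0.25 was not called (adjusted p = 0.203 by limma). Its host gene Blcap had 294.4, 310.1 and 373.8 in wild-type and 135.6, 255.1 and 160.8 in knockout cells, also without overlap and without a call (difference -0.81 ± 0.28, adjusted p = 0.18 by limma). Mest, which encodes a protein of the alpha/beta hydrolase fold, had 717.7, 555.5 and 562.3 in wild-type and 579.1, 580.4 and 674.2 in knockout cells. The groups overlapped fully, and the 95% interval of the difference ran from -0.32 to 0.33. Impact, a regulator of the translation kinase GCN2, had 325.7, 184.7 and 238.3 in wild-type and 207.3, 284.2 and 179.0 in knockout cells, overlapping as well, with a wider interval from -0.79 to 0.51.

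By the copy named above as expressed in the mouse, the 14 probe sets that were not at background in both groups split into 4 for the maternally expressed Grb10 and Meg3, 9 for paternally expressed genes and 1 for Gnas, which is counted in neither class. Of the maternal 4, 1 was called higher and 2 lower, with a median difference of -1.14. Of the paternal 9, 2 were called higher and 0 lower by limma (3 and 2 at an unadjusted p under 0.05, which 7.48% and 7.91% of all probe sets had in these directions), with a median of 0.25, and at the level of genes Peg3 was the 1 called. Members of each class had differences of both signs. Of the maternal 4, 1 was positive and 3 were negative. The positive 1 was Meg3 160172_at, with a wild-type mean under background, while Meg3 160173_at was at -0.03 ± 0.28. Among the paternally expressed genes, Dlk1 and Nnat were lower, without a call. Probe sets of a gene share their target and are not replicates, so these counts carry no test.

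Whether probe sets of the same gene gave different knockout effects was tested on the difference between 2 probe sets within each array. Of the 2639 probe set pairs of all genes with at least 1 probe set above background, 0.0758% were called by limma. Of the 10 pairs from these imprinted genes, 0 were called by limma, and 6 had an unadjusted p under 0.05, as did 190 of all pairs (7.2%). Among the 6 were the Grb10 pairs of 93690_at and 93691_s_at with 95450_at (unadjusted p = 0.00274 and 0.0011 by limma). As 95450_at was at background in both groups, it could not show a fall, so these pairs had to differ. The Peg3 pairs, also among the 6, share their probe sets, so the 6 are not separate results. Among the pairs with both probe sets above background in at least 1 genotype, the Meg3 pair differed most in effect. The difference was 2.86 ± 0.47 (adjusted p = 0.116 by limma). The pair was called when the fit was kept to such pairs (adjusted p = 0.0376), with a pseudocount of 64 (adjusted p = 0.0286) and without wild type replicate 3 (adjusted p = 0.00883). Probe set 160172_at met that filter only through its knockout arrays (mean 795.5, against 100.8 in wild type). The call under the filter is thus no separate support for a difference.

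For Peg3, the effect on 101451_at exceeded that on 161316_f_at by 1.17 ± 0.23 (adjusted p = 0.161 by limma) and that on 96765_at by 0.43 ± 0.19 (adjusted p = 0.676). The 2 bright Grb10 probe sets differed by 0.52 ± 0.42 (adjusted p = 0.823) and those of Ndn by 0.23 ± 0.35 in size (adjusted p = 0.912). The 2 Grb10 effects thus pointed the same way and lay within 1.5 standard errors of each other, as did those of Ndn. Which transcripts or exons each probe set reads was not analysed here.

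**Figure D3:**
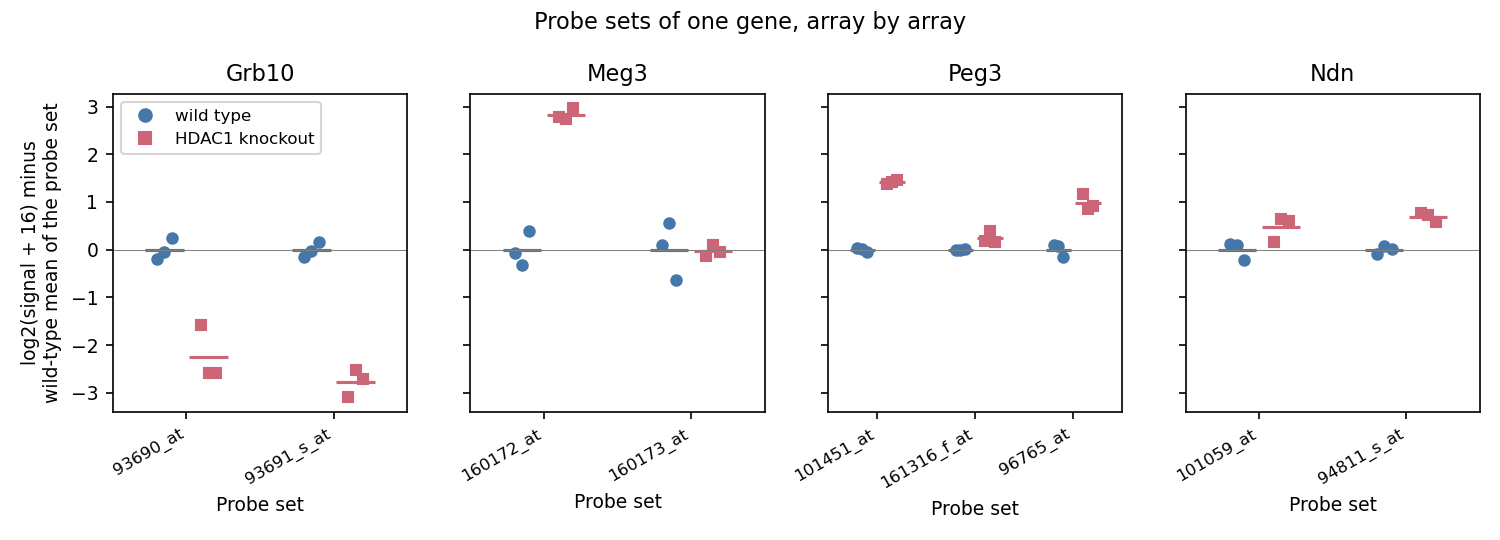
log2(signal + 16) of each array minus the wild-type mean of its probe set, for the genes with several probe sets above background in at least 1 genotype (circles wild type, squares HDAC1 knockout, lines group means, n = 3). The knockout arrays of Meg3 160172_at sit near 2.82 while those of 160173_at sit within the spread of the wild-type arrays; the Grb10 and Ndn probe sets move alike.

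Other imprinted genes were looked at through lists of genes in the same loci and elsewhere outside distal chromosome 7, with the brightest probe set standing for a gene. Of 8251 genes represented this way 4.58% were called, 2.7% higher and 1.88% lower, and 8.45% and 8.65% were higher and lower at an unadjusted p under 0.05. Of 26 listed genes in the same loci 7 were measured, and 1 was called higher and 0 lower by limma (1 and 3 at an unadjusted p under 0.05). Usp29, which is among the 3, and Mkrn3 were at background in both groups. The median difference was -0.46 against -0.04 over all genes, but it is the value of Ikzf1, which had no call (adjusted p = 0.79 by limma). The summed signals of the list overlapped, from 1296 to 1529 on wild-type and from 1200 to 1434 on knockout arrays. The gene that rose was Ddc, the aromatic amino acid decarboxylase next to Grb10 on chromosome 11, from 422.0 ± 45.5 to 652.7 ± 60.1 (SD, n = 3 each), 1.53-fold. Its call was marginal (adjusted p = 0.0479 by limma) and was lost in 11 of 16 other settings, including the omission of wild type replicate 1 or 2 or of any knockout array, with adjusted p up to 0.189. The direction was opposite to that of Grb10 in the same arrays. Magel2, the neighbour of Ndn and a regulator of protein ubiquitination, had signals of 126.1, 148.3 and 82.2 in wild-type cells. It lay under the background level on all knockout arrays (19.0, 23.2 and 36.5) without a call (adjusted p = 0.069 by limma). Its wild-type mean of 118.9 was itself close to the background level of 116.4, so a fall above background is not established. Both Ndn probe sets were higher, also without a call.

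Of 31 imprinted genes at other loci 18 were measured, 7 of them at background in both groups, and 0 were called higher and 2 lower by limma (1 and 4 at an unadjusted p under 0.05), with a median difference of -0.14. H13, the signal peptide peptidase gene that hosts the imprinted retrogene Mcts2 in an intron, had 778.5, 901.9 and 787.3 in wild-type and 327.9, 313.5 and 406.4 in knockout cells. The knockout arrays were all lower, by 2.30-fold (difference -1.20 ± 0.15, adjusted p = 0.00124 by limma), while a second probe set of the gene was at background throughout. Sfmbt2, a Polycomb group protein gene expressed from the paternal copy in early development, had 1358.0, 1225.5 and 1370.6 in wild-type and 712.9, 591.8 and 747.9 in knockout cells. It fell 1.91-fold (difference -0.94 ± 0.12, adjusted p = 0.00135 by limma), a call lost without a trend in the variance model (adjusted p = 0.0649). The Sfmbt2 probe set has the ending f explained above, so other members of a sequence family may add to its signal. The H13 call and the Peg10 value, given next, came from probe sets with the ending r, chosen under relaxed design rules. Peg10, a paternally expressed gene derived from a retrotransposon, had the smallest p of the uncalled genes, with 456.8 ± 82.1 and 685.7 ± 61.0 and a difference of 0.58 ± 0.16 (adjusted p = 0.0847 by limma).

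A further list held genes that set, protect or read imprints, and Hdac2 as a paralog of Hdac1. Of these 28 genes 20 were measured, and 0 were called higher and 1 lower by limma (5 and 2 at an unadjusted p under 0.05). The median difference was 0.06. The share called, 1 of 20, is near that of all genes. The gene that fell was Dnmt3a, the DNA methyltransferase that sets imprints in the germ line. Its signals were 1175.3, 1707.0 and 1332.0 in wild-type and 585.0, 646.3 and 676.0 in knockout cells, a separation of 2.16-fold (difference -1.11 ± 0.14, adjusted p = 0.00141 by limma) that was not called without a trend in the variance model (adjusted p = 0.0666). Its second probe set was at background in both genotypes. The other genes of this list that are named here, chosen after their values were seen, had no call. Dnmt1, the maintenance methyltransferase, had a difference of -0.10 ± 0.07 (adjusted p = 0.582 by limma). The imprint-protecting pair Zfp57 and Trim28 had 0.27 ± 0.13 (adjusted p = 0.379) and 0.04 ± 0.10 (adjusted p = 0.904), the latter with the opposite sign, -0.02, without HDAC1 knockout replicate 1. Uhrf1, which recruits Dnmt1 to replicated DNA, had 0.28 ± 0.09 (adjusted p = 0.165), and Hdac2, the closest paralog of Hdac1, 0.45 ± 0.11 (adjusted p = 0.0636). Hdac2 was called in 4 of 16 other settings, which were median centring (adjusted p = 0.0306), omission of wild type replicate 3 (0.0408), array weights (0.0457) and omission of the dimmest 25% of probe sets (0.0491), and its adjusted p reached 0.333 in the rest.

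**Figure D4:**
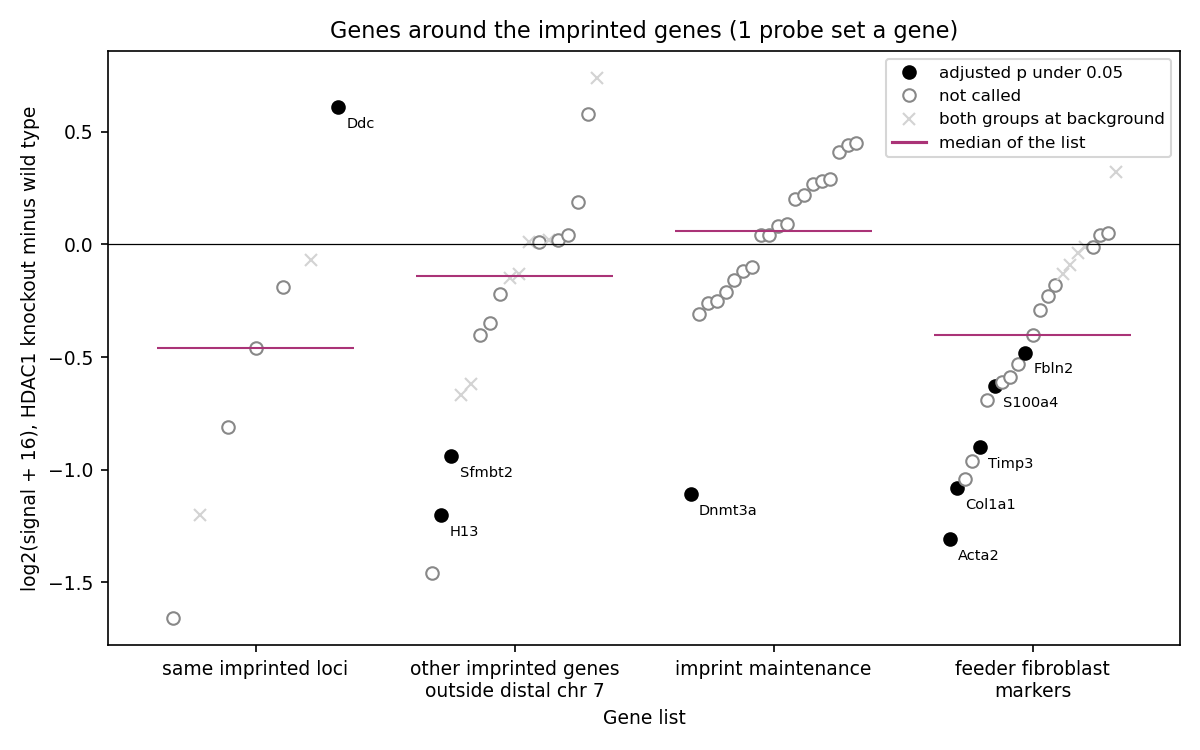
Knockout minus wild-type difference in log2(signal + 16) for the measured genes of 4 lists, 1 probe set a gene, ordered within each list. Filled points are called by limma and named, crosses were at background in both genotypes and lines mark the list medians of -0.46, -0.14, 0.06 and -0.40.

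Markers of other cells were read on the same arrays, because several of these imprinted genes are also expressed in fibroblasts. The counts below stand against the shares of all genes given above, 2.7% called higher and 1.88% lower. Of 23 measured feeder fibroblast markers, 0 were called higher and 5 lower by limma (0 and 7 at an unadjusted p under 0.05), with a median difference of -0.40. The 5 were Acta2, Col1a1, Timp3, S100a4 and Fbln2. Dcn, 1 of the 7, is also counted among the 4 imprinted genes at other loci that were lower at that threshold. The summed signal of all 23 markers ran from 16291 to 16873 on wild-type and from 11970 to 12715 on knockout arrays. Postn, Lum, Thbs2, Pdgfrb and Fap were at background in both groups. The 3 brightest were Fbln2 and S100a4, which fell 1.40-fold and 1.55-fold, and Fn1, with a difference of 0.05 ± 0.10. Of 16 primitive endoderm markers, Lama1 was called higher and 0 were lower by limma (3 and 1 at an unadjusted p under 0.05), with sums from 7110 to 7914 and from 8555 to 9147 and Foxa2, Hnf4a, Afp and Ttr at background. The brightest, Col4a2, Col4a1 and Lamc1, had differences of 0.01, 0.14 and 0.17. Of 8 measured neural markers Stmn2 was called higher and 0 were lower by limma (2 and 1 at an unadjusted p under 0.05), with sums from 4824 to 5620 and from 6446 to 7954 and Pax6, Map2 and Neurog2 at background. Of 9 measured stem cell markers 4 (Nanog, Sox2, Zfp42 and Fgf4) were called higher and 0 lower by limma (5 and 0 at an unadjusted p under 0.05), with sums from 47336 to 50241 in wild-type and from 61839 to 63817 in knockout cells, and none was at background. The called differences were 1.07 ± 0.07 for Nanog, 0.48 ± 0.11 for Sox2, 1.16 ± 0.10 for Zfp42 and 0.77 ± 0.13 for Fgf4. The 2 brightest markers, Dppa5a and Pou5f1, had differences of 0.09 ± 0.08 and 0.10 ± 0.09, without a call. Also uncalled were Esrrb at 0.85 ± 0.23, Utf1 at -0.01 ± 0.10 and Tdgf1 at -0.02 ± 0.13. The 3′ to 5′ signal ratio of beta-actin was 1.21, 1.15 and 1.21 in wild-type and 1.09, 1.04 and 1.09 in knockout arrays, without overlap (two-sided exact permutation p = 0.1, the smallest possible). The part of other cells and of RNA quality in the differences of the imprinted genes was not tested.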

How the data were processed

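The deposited values are linear signal intensity per probe set of 6 arrays, which the authors computed with MAS5 (per the submitters' processing notes; its version, settings and detection calls: not given in the sources used here). A trimmed mean (2% off each end) was 500.3 on every array, so the deposited intensities were already scaled and were used as such; a shift of all transcripts in 1 direction cannot be seen. The experiment headers of the 6 arrays were identical and show no batch. No depth exists for arrays, and the number of arrays limits the precision.

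After removal of 66 control probe sets, 12422 were tested in R 4.3.3 with limma 3.58.1 (lmFit, then eBayes using a mean-variance trend) on log2(signal + 16), a scale that understates changes of dim probe sets, without covariates. Background was the 95th percentile of 19 control probe sets. A fold is "at least" where the mean or all arrays of 1 group lay at or under it, with the arrays of that group under background set to it. Of the probe sets 10833 had 1 symbol, 396 several and 1193 none; 10817 of the first were updated by gene identifier through RefSeq (GRCm38.p6), which also gave chromosomes and promoter sequences. Probe set pairs of a gene were fitted the same way on their difference per array. In data simulated from this comparison, changes were planted only in probe sets with a mean signal above background (for pairs, in at least 1 genotype). In a fit of 12422 probe sets, 67% of 2-fold and 96% of 4-fold changes were called. Of 4-fold pair differences, 92.9% were called in a fit of 2639 pairs. Recovery of changes in probe sets at background was not simulated. Alternatives were pseudocounts, scaling, variance models, array weights, filters, thresholds, a replicate block and single arrays left out. The named genes are every probe set of the chosen genes, Hdac1, and listed genes that were called or had the smallest p; members and lists were chosen with earlier results of these data known.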

Additional observations from a re-analysis of the deposited data

How the results depend on the processing

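Calls of Grb10 (both bright probe sets), Meg3 160172_at and Peg3 101451_at kept their direction and their side of the threshold in all 16 alternatives, with differences from -2.58 to -1.95 and -2.91 to -2.42, 2.40 to 3.02 and 1.28 to 1.5. The count of probe sets called higher was 2 without a trend and 3 in every other fit of all probe sets, and the count called lower ran from 2 to 3, with Gnas as the probe set lost; with single arrays left out they were 3 and 2 to 3. With 1 probe set a gene, 2 were higher and 2 lower. The pairs of probe sets called were 2 with a pseudocount of 64 (Meg3, and Grb10 93691_s_at against the dim 95450_at). There was 1 without wild type replicate 3 and 1 with both probe sets above background in at least 1 genotype (Meg3 each time). Otherwise 0 were called (0 to 1 with single arrays left out), and the cause was not tested. The shift between Meg3 and Dlk1 was 3.50 and 2.86 with pseudocounts of 1 and 64, 1.88 with all probe sets, 0.46 with 160173_at, 3.04 with signals under background set to it, and 3.20 to 3.39 with single arrays left out. The 3′ to 5′ ratio fell by 0.15 (log2) for beta-actin, with -0.17 to -0.13 when single arrays were left out, and by 0.02 for Gapdh. Differences near 0 changed sign without a call: Meg3 160173_at to 0.01 with quantile normalization, to 0.05 with median centring, and to as much as 0.24 (without wild type replicate 2) with single arrays left out, where it ran from -0.35; Mest to -0.01 with array weights and, with single arrays left out, between -0.07 and 0.12; Impact, likewise, between -0.32 and 0.06; and Trim28 between -0.02 and 0.11. The cause was not tested.

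Same-numbered arrays did not visibly deviate together (correlations from -0.07 to -0.01), and the main fit did not pair them. Whether same-numbered samples were handled together is not given in the labels. With the replicate block 3 of the probe sets were higher and 2 lower (Gnas adjusted p = 0.0655 by limma). Over the whole table, 279 probe sets were higher and 203 lower, against 200 and 119 with the block, 82 and 50 without a trend, 344 and 129 with median centring, which moved the median difference from -0.04 to 0.04, and 150 to 246 and 98 to 174 with single arrays left out (fewest without HDAC1 knockout replicate 2). The planned comparison of Snrpn with Ndn was not run, as Snrpn had no probe set. The 3 probe sets at background in both groups were called in 0 of 17 fits by limma. Signal over background limits the folds of Grb10 and Meg3.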
